A study of Saccharomyces cerevisiae with 72 samples.

Results

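The 55 genes RPS0A to RPS31 encode the proteins of the small subunit of the cytosolic ribosome in Saccharomyces cerevisiae. They were chosen by gene name from the 6843 features of the expression tables. The 55 genes make 32 proteins. 23 of these proteins come from a pair of paralogous genes, an A and a B copy, which accounts for 46 genes. The other 9 include RPS2, RPS3, RPS12, RPS13, RPS15, RPS20, RPS31 and RPS30B, whose sister copy RPS30A was not analysed here. All 55 passed the filter on low counts in both tests described below.

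The small subunit binds the mRNA and reads its codons, and the large subunit joins the amino acids. Growing yeast spends a large part of its transcription on ribosomes, and the ribosomal protein genes are known to be switched as a group through Rap1, Fhl1, Ifh1 and Sfp1, under the control of TOR and protein kinase A signalling. Their mRNA falls together in starvation and in many stresses and recovers when growth resumes. The paralogous copies are remnants of an ancient genome duplication, and many carry an intron, which is rare in this yeast.

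Cells were made polyploid by repeated DNA replication without division in 2 ways, and mRNA was sequenced over 16 h in 72 libraries, 36 in each of 2 tests, with 3 replicate cultures for each of 24 conditions. In the MB test, polyploid cells were mad1Δ bub2Δ, which lack the spindle checkpoint, grown in 15 µg/mL nocodazole, a drug that dissolves microtubules. Arrested cells of the MB test were MAD1 BUB2 cells in the same drug, which stop before anaphase with replicated, unseparated chromosomes and enlarge without adding DNA, and cycling cells were mad1Δ bub2Δ in the solvent DMSO, all at 30 °C. In the CS test, polyploid cells were cdc24-1 swe1Δ at 37 °C, where the cdc24-1 allele prevents budding, arrested cells were cdc24-1 swe1Δ cdc20-1 at 37 °C, which cannot enter anaphase, and cycling cells were cdc24-1 swe1Δ at 25 °C. All cultures grew in YPD, a medium of yeast extract, peptone and dextrose, and more nocodazole was added to the drug-treated ones during the time course. The time points of the polyploid and arrested cultures were 0, 4, 8, 12 and 16 h, and those of the cycling cultures 0 and 16 h. Each cell type was 1 strain and all were haploid at the start. Polyploid and arrested cells of the CS test share the swe1 deletion, the cdc24-1 allele and the shift to heat, of which the cycling CS cells have the first 2, and those of the MB test share the drug but not the genotype. The strains were W303, the one of the polyploid and cycling CS cells by repeated backcrossing to it, and the arrested CS strain was MATα where the others were MATa. By the study's methods the replicates are biological and the time points of a cell type were taken from 1 culture, but which libraries share a culture is not given there or in the labels.

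Libraries held 1597321 to 9987276 estimated counts (median 6918124). The mean DNA content per cell, in kAU (kilo-units of fluorescence), was 102, 239, 360.1, 454 and 442 in polyploid MB cells from 0 to 16 h, and 108, 186, 283, 284 and 264 in polyploid CS cells. BUB2 had 0 counts in the 21 mad1Δ bub2Δ libraries, while MAD1 kept 121 to 349 counts there, against 372 to 1012 in the 15 arrested MB libraries. SWE1 had 0 counts in 35 CS libraries and 152 in the library labelled arrested CS, 16 h, replicate 2. That library also had 600 CPM (counts scaled to the size of the library) of the MATa gene STE2, against 7.04 to 32.6 in the other arrested CS libraries, and 33.3 CPM of the MATα gene STE3, against 71.6 to 764. Polyploid and cycling CS libraries, which are MATa, had 125 to 504 CPM of STE2 and 0 to 17.2 of STE3. Counts of members called in 16 h comparisons that use it are given with and without it. Left-over ribosomal RNA was 0.731 to 47.6% of counts (median 2.27%), the highest in polyploid CS cells at 12 h, replicate 1.

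In cycling cells at 0 h (6 libraries of both tests), mRNA levels differed several-fold between proteins that are built into the ribosome in equal numbers. In TPM, the transcript abundance per length, rescaled here to the total outside ribosomal RNA, with both copies of a pair summed, RPS21 had a median of 10001 TPM (range 8509 to 13051), and RPS31, which is made as a fusion with ubiquitin, had 9293 TPM (range 8191 to 12572). RPS23, whose protein sits at the decoding centre, had 7642 TPM (range 6585 to 9219). At the other end were RPS29 with 3022 TPM (range 2643 to 4584), RPS3 with 2987 TPM (range 2544 to 3383) and RPS15 with 2767 TPM (range 2430.2 to 3397). The range of RPS15 does not reach that of RPS23, RPS31 or RPS21, while neighbours such as RPS15 and RPS3 overlap. Level and coding length had a Pearson r of -0.19 and a Spearman rho of -0.24 over the 32 proteins, which share the same libraries. The length in these TPM values is the one set in the authors' quantification and not the coding length. The place of very short genes such as RPS21 (264 coding bases) and RPS29 (171) in this order is therefore uncertain. By the RefSeq annotation of R64, 35 of the 55 genes have an intron and 20 have none, and they lie on 14 chromosomes. The 2 coding sequences of a pair are 84.3 (RPS27) to 99.2% (RPS6) identical, with a median of 92.4%, and 8 pairs make identical proteins. The copies of RPS6 share a run of 311 identical bases, so reads are hard to assign to 1 copy there and the split between these copies is uncertain.

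The summed mRNA of the 55 genes followed different courses in the 2 kinds of polyploid cell. As a share of counts outside ribosomal RNA, it was 5.32 ± 0.217%, 7.86 ± 2.82%, 7.74 ± 0.946%, 4.80 ± 1.12% and 3.53 ± 0.175% at 0, 4, 8, 12 and 16 h in polyploid MB cells (mean ± SD, n = 3). In arrested MB cells it was 6.89 ± 0.598%, 4.38 ± 0.16%, 2.44 ± 0.129%, 2.23 ± 0.151% and 2.29 ± 0.346% at the same times. Cycling MB cells had 11.6 ± 2.37% at 16 h, against 6.81 ± 0.898% at 0 h. The share thus went up and then down in polyploid MB cells, fell early and stayed low in arrested MB cells and was highest in cycling cells at 16 h. Polyploid CS cells had 6.35 ± 0.877%, 4.94 ± 1.24%, 3.74 ± 0.853%, 3.06 ± 0.0818% and 3.65 ± 0.513% from 0 to 16 h, and arrested CS cells 5.58 ± 0.138%, 3.93 ± 0.516%, 3.63 ± 0.367%, 2.69 ± 0.228% and 2.71 ± 1.28%. Cycling CS cells had 7.11 ± 0.825% at 16 h, against 6.81 ± 1.26% at 0 h. The share of polyploid CS cells fell to 12 h with arrested CS cells, and the libraries of the 2 overlapped at 4 and 8 h. The 3 arrested CS libraries at 16 h had 1.91, 4.18 and 2.03%, and the highest of these is the library with SWE1 counts, without which their mean is 1.97% (n = 2). Every such value is relative to the other mRNA of a culture, so a lower share may come with more, equal or less mRNA per cell, and in bulk samples fewer cells with the mRNA and less mRNA per cell cannot be told apart.

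**Figure D1:**
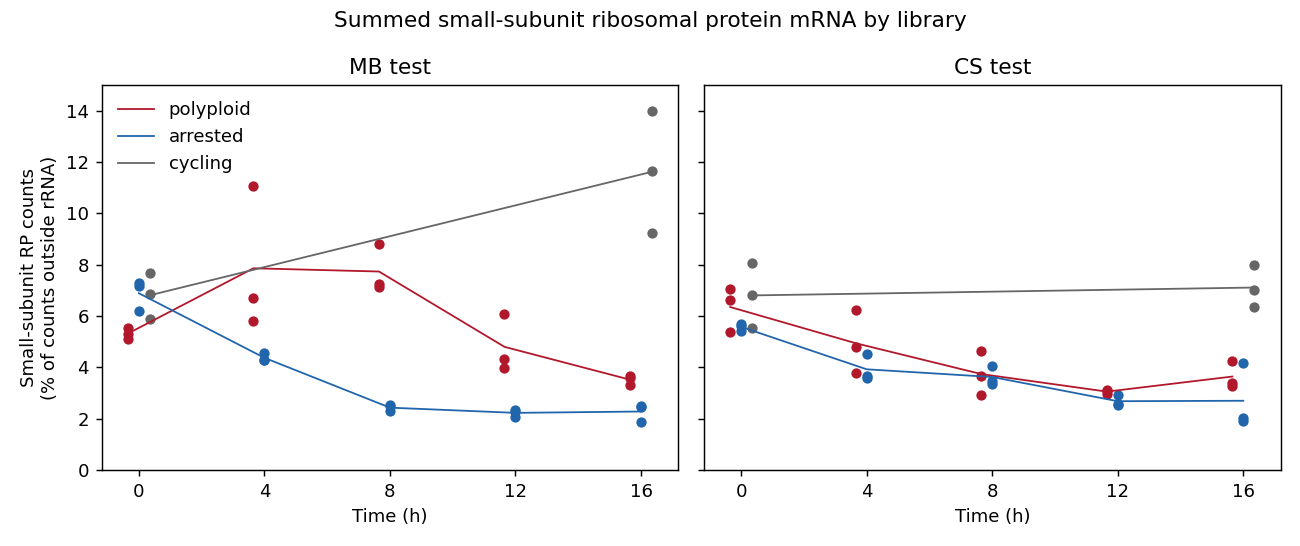
Summed counts of the 55 small-subunit ribosomal protein (RP) genes as a percent of counts outside ribosomal RNA (vertical axis) at each time in hours, for the MB test (left) and the CS test (right). Points are single libraries and lines join the means of 3 cultures: polyploid MB cells are highest at 4 and 8 h with means of 7.86 and 7.74%, where arrested MB cells at 8 h have 2.44%, and the mean of polyploid CS cells is lowest at 12 h, while that of arrested CS cells at 16 h holds the library with SWE1 counts, the highest of its 3 points.

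In polyploid MB cells the genes rose at first, relative to 0 h. Their summed share at 0 h was 5.32%, against 6.81% in cycling and 6.89% in arrested MB cells. At 4 h, 40 of 55 were higher than at 0 h and 0 lower, with a median log2 fold change of 0.69, against 0.04 over all genes. Of all genes, 13.3% were called higher (edgeR's quasi-likelihood test, Benjamini-Hochberg adjusted p under 0.05 over the 6025 genes tested). At 8 h, 37 were higher and 0 lower (median 0.63, and 16.5% of all genes higher). Both counts of 0 lower also hold at an unadjusted p under 0.05. The 3 members with the smallest p-values at 4 h were RPS9A, RPS24B and RPS27A, each the less expressed copy of its pair at 0 h. RPS9A (YPL081W), for a protein that keeps decoding accurate, had 581, 375 and 286 CPM at 4 h, against 196, 167 and 142 at 0 h (log2 fold change 1.30, SE 0.20, adjusted p = 2.52e-05). RPS27A (YKL156W) had 499.5, 207 and 228 CPM at 4 h, against 117, 96.9 and 163 at 0 h (1.31, SE 0.27, adjusted p = 8.14e-04). The 4 h and 0 h libraries do not overlap for either gene, and replicate 1 is the highest at 4 h for both. RPS24B (YIL069C) had 843, 533 and 669 CPM at 4 h and 738, 913 and 706 at 8 h, against 357, 330.0 and 466 at 0 h (1.03, SE 0.17, adjusted p = 2.52e-05 at 8 h). RPS14B (YJL191W) had 223, 213 and 233 CPM at 8 h, against 84.9, 99.7 and 149 at 0 h (1.00, SE 0.18, adjusted p = 8.61e-05), again with no overlap. The 4 h count rests on replicate 1, which had a summed share of 11.1% at 4 h, against 5.81 and 6.70% in the other 2. Without the libraries of these cells numbered 1 at all times, 1 of 55, RPS9A, was higher (median 0.28). Here and below, a culture left out means the libraries of a cell type that carry that replicate number. Such a fit holds fewer libraries, and the share of all genes called in it was not computed. At 8 h, 4 were called without culture 2, RPS9A, RPS14B, RPS24B and RPS28B (median 0.43). These alternatives were chosen after the data were seen.

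By 16 h most of the genes were lower in the same cells. At 12 h, 1 was higher (RPS9A, 0.69, SE 0.20, adjusted p = 0.00678) and 11 were lower than at 0 h (median -0.35). Of all genes, 20% were higher and 16.8% lower. The 12 h count of lower members is near the share of all genes. At 16 h, 1 was higher and 48 were lower (median -0.91, against 0.03 over all genes, 23.2% of which were higher and 21.7% lower). The 6 that did not pass the test were RPS12, RPS14B, RPS27A, RPS27B, RPS28A and RPS28B. Among the smallest p-values of those lower at 16 h were RPS9B and RPS4B, both for proteins of the body of the subunit. RPS9B (YBR189W) had 769, 831 and 741 CPM at 16 h, against 1813, 1736 and 2071 at 0 h (-1.26, SE 0.15, adjusted p = 6.51e-08). RPS4B (YHR203C) had 663, 664 and 581 CPM, against 1126, 1207 and 1655 (-1.06, SE 0.15, adjusted p = 1.57e-06). In both the cultures agreed closely at 16 h and lay below every 0 h culture. RPS9A was the member that rose, with 251, 238 and 216 CPM at 16 h, against 196, 167 and 142 at 0 h (0.48, SE 0.20, adjusted p = 0.0485).

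In the 7 single-copy genes described here, which cannot hide a shift between copies, every culture of polyploid MB cells was higher at 8 h and lower at 16 h than all cultures at 0 h. RPS2 and RPS3 encode proteins at the entry of the mRNA channel. RPS2 (YGL123W) had 2804, 2747 and 3161 CPM at 0 h, 3577, 4743 and 3745 at 8 h and 1483, 1675 and 1489 at 16 h. RPS3 (YNL178W) had 1910.3, 1783 and 2114 CPM at 0 h, 2616, 3493 and 2479 at 8 h and 902, 897 and 823 at 16 h. In both, culture 2 was the highest at 8 h. RPS13 (YDR064W), for a protein of the body that reaches the large subunit, had 1358, 1331 and 1339 CPM at 0 h, 1785, 2628 and 1706 at 8 h and 648, 599.8 and 508 at 16 h. RPS12 and RPS31 encode proteins of the beak, a spur of the head. RPS12 (YOR369C) had 1492, 1284 and 1591 CPM at 0 h, 2369, 2860.2 and 2661 at 8 h and 1022, 1013 and 1059.8 at 16 h, and RPS31 (YLR167W) had 3047, 2478 and 3094 CPM at 0 h, 3644, 4674 and 4460.1 at 8 h and 1429, 1476 and 1719 at 16 h. RPS20 (YHL015W), for a head protein that is ubiquitinated when ribosomes collide, had 1099, 1131 and 1366 CPM at 0 h, 1706, 2104 and 1939.6 at 8 h and 761, 890.0 and 844 at 16 h. RPS15 (YOL040C), whose protein is needed to export the young subunit from the nucleus, had 771, 822 and 885 CPM at 0 h, 1068, 891 and 1009 at 8 h and 546, 570.2 and 466 at 16 h. Not all of these differences passed the test. RPS12 did not at 16 h (log2 fold change -0.50, SE 0.25, adjusted p = 0.104), and RPS3 and RPS31 did not at 8 h (0.56 and 0.57). RPS15 had the smallest log2 fold change of the 55 at 4 h (0.10) and the second smallest at 8 h (0.26), neither past the threshold, and it fell at 16 h (-0.65, SE 0.15, adjusted p = 9.09e-04).

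In arrested MB cells the genes fell early, and from 8 h on all 55 were lower. 47 of 55 were lower at 4 h than at 0 h (median -0.85), where 17.9% of all genes were lower. All 55 were lower at 8 h (median -1.74, 24.5% of all genes), at 12 h (-1.88, 25.6%) and again at 16 h (-2.02, 26.1%). At 16 h the changes ran from -2.62 (RPS22A) to -1.07 (RPS14B). RPS7B and RPS9B were among those with the smallest p-values. RPS7B (YNL096C), for a protein of the body of the subunit, had 122, 106 and 113 CPM at 16 h, against 754, 607 and 675 at 0 h (log2 fold change -2.57, SE 0.15, adjusted p = 8.13e-15), and RPS9B had 436, 527 and 584 CPM, against 2913, 2688 and 2940.2 (-2.47, SE 0.16, adjusted p = 3.91e-14). Neither overlapped between the times.

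Cycling MB cells moved the other way over the same 16 h. 45 of 55 were higher at 16 h than at 0 h (median 0.86, against 0.00 over all genes) and 1 was lower. Of all genes, 19.9% were higher and 17.2% lower. The smallest p-values were those of RPS20, RPS27A, for a zinc-finger protein, and RPS21B, for a small protein bound to Rps0. RPS20 had 3674, 4588 and 2559 CPM at 16 h, against 1663, 1560.4 and 1429 at 0 h (log2 fold change 1.22, SE 0.22, adjusted p = 1.94e-04). RPS27A had 578, 816 and 408 CPM, against 251, 230.1 and 194 (1.42, SE 0.27, adjusted p = 3.27e-04), and RPS21B had 1848, 2527 and 1337 CPM, against 865, 794 and 692 (1.28, SE 0.26, adjusted p = 6.70e-04). The cultures do not overlap between the times, and replicate 2 is the highest at 16 h in each of these genes. The gene that fell was RPS15, with 839, 795 and 956 CPM at 16 h, against 1168, 1253 and 972 at 0 h (-0.39, SE 0.15, adjusted p = 0.0436). Without culture 2 of the cycling cells, 16 genes were higher and 0 lower (median 0.70).

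**Figure D2:**
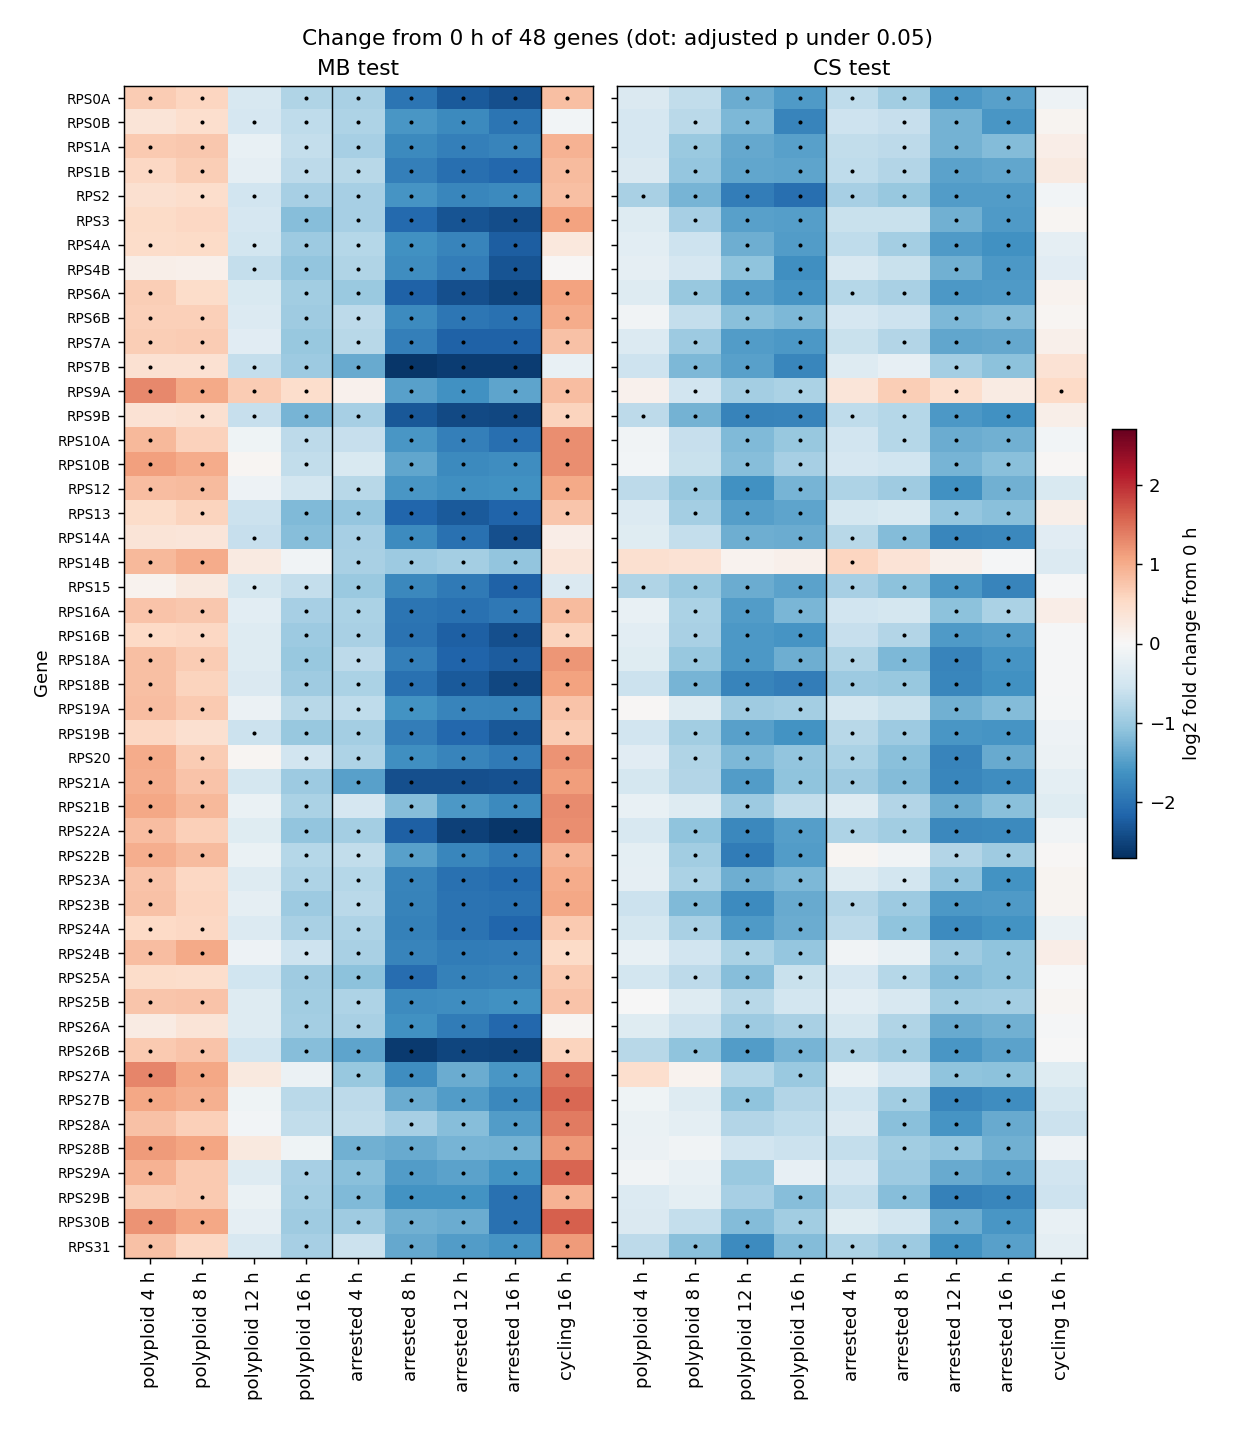
Log2 fold change from 0 h (colour, red for higher and blue for lower) of 48 of the genes (rows, in name order) at each later time in polyploid, arrested and cycling cells of the MB test (left) and CS test (right), with a dot where the adjusted p is under 0.05. Polyploid MB cells are red in all rows at 4 and 8 h and blue at 16 h in all rows but RPS9A, arrested MB cells are blue in every row from 8 h on, and RPS9A, RPS14B and, at 4 h, RPS22B leave the blue block of arrested CS cells.

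Polyploid and arrested MB cells were compared by the change from 0 h in the first minus that in the second. Both enlarge in the same drug, and they differ in genotype, in whether the cell cycle goes on and in DNA content, which cannot be told apart. The change was higher in polyploid than in arrested cells for all 55 genes at 4 h (median difference 1.51 on the log2 scale, with 12% of all genes higher) and for all 55 at 8 h (median 2.38, 16.8%). It was higher for 52 at 12 h (median 1.62, 14.2%) and for 44 at 16 h (median 1.20, 11.3%). At no time was a member lower, also at an unadjusted p under 0.05. RPS7B had the smallest p-value at 8 h. It had 546, 512 and 555 CPM at 8 h, against 309, 382 and 529.7 at 0 h in polyploid cells, while arrested cells had 99.8, 109 and 122 CPM at 8 h, against 754, 607 and 675 at 0 h. The polyploid libraries of the 2 times overlap, the arrested libraries lie far apart, and the difference of changes was 3.02, SE 0.21, adjusted p = 5.66e-12. It was followed by RPS9B (2.72, SE 0.21, adjusted p = 4.73e-11) and RPS24B (2.81, SE 0.24, adjusted p = 1.96e-10). At 16 h RPS7B (1.58) and RPS15 (1.54, SE 0.22, adjusted p = 6.44e-06) were among those with the smallest p-values. RPS15 had 237, 282 and 227 CPM at 16 h in arrested cells, against 1293, 935 and 1167 at 0 h, with no overlap. Without any 1 culture of either cell type, 54 or 55 were called at 4 and 8 h and 50 to 53 at 12 h. At 16 h, 28 were called without culture 1 of the arrested cells (median 1.06).

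The cell types already differed at 0 h, when 12 of 55 were lower and 0 higher in polyploid than in arrested MB cells (median -0.47, with 3.87% of all genes lower; at an unadjusted p under 0.05, 29 lower and 0 higher). RPS14B showed the smallest p-value, with 84.9, 99.7 and 149 CPM in polyploid cells, against 288, 228 and 276 in arrested cells (-1.25, SE 0.18, adjusted p = 2.71e-05), followed by RPS7B (-0.74) and RPS0B (-0.68). Compared at the same time, the levels were higher in polyploid cells for all 55 genes at 8 h (median 1.97, 21.4% of all genes higher) and for 36 at 16 h (median 0.71, 14.2%), and lower for none. RPS9A had 251, 238 and 216 CPM at 16 h in polyploid cells, against 91.6, 93.5 and 91.5 in arrested cells (1.35, SE 0.20, adjusted p = 1.10e-05). Against cycling cells of the same genotype, polyploid MB cells were lower for 10 genes at 0 h (median -0.43, 9.69% of all genes lower) and for all 55 at 16 h (median -2.23, 30.6%). These comparisons share the polyploid libraries. Arrested and cycling MB cells did not differ at 0 h in any of the 55 genes by edgeR's test (11.7% of all genes called), with 0 also at an unadjusted p under 0.05, and no other tool was run on it.

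**Figure D3:**
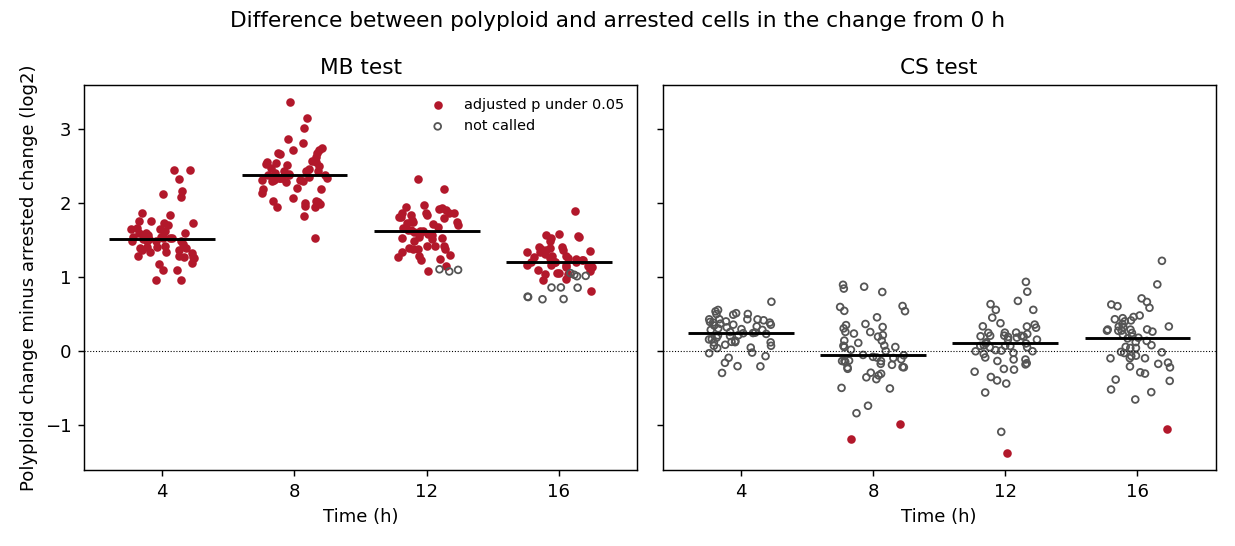
Change from 0 h in polyploid cells minus change from 0 h in arrested cells (log2, vertical axis) at 4, 8, 12 and 16 h for the MB test (left) and CS test (right). Each point is 1 of the 55 genes, filled where the adjusted p is under 0.05, and the bar is the median: it stands at 2.38 at 8 h in the MB test and at -0.06 in the CS test.

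In the CS test, by contrast, the genes fell gradually in polyploid cells, relative to the other mRNA, and no member was called higher. 4 of 55 were lower at 4 h than at 0 h (median -0.35), among them RPS2, RPS9B and RPS15. This count is below the share of all genes, as 11.7% of the 6028 genes tested were lower. 33 were lower at 8 h (median -0.82, 14.2%), 49 at 12 h (-1.34, 20.2%) and 48 at 16 h (-1.25, 23.4%, with a median of 0.07 over all genes). No member was higher at an unadjusted p under 0.05 at any of these times. RPS7B had 99.4, 107 and 197 CPM at 16 h, against 411, 420.4 and 518 at 0 h (log2 fold change -1.76, SE 0.23, adjusted p = 4.43e-07). RPS0B, for a protein needed late in the maturation of the subunit, had 354, 262 and 498 CPM, against 1139, 1220.4 and 1481 (-1.79, SE 0.24, adjusted p = 7.82e-07). RPS2 had 740.3, 641 and 1148 CPM, against 3591, 2963 and 3783 (-2.03, SE 0.29, adjusted p = 2.00e-06). Cultures at 16 h lay below all 0 h cultures in the 3 genes. The 7 that did not pass the test at 16 h were RPS14B, RPS21B, RPS25B, RPS27B, RPS28A, RPS28B and RPS29A, with log2 fold changes from -0.79 (RPS27B) to 0.14 (RPS14B).

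All 7 single-copy genes described here fell by 16 h in both polyploid and arrested CS cells. RPS3 had 828, 578 and 1125 CPM at 16 h, against 2241, 1993 and 2828 at 0 h in polyploid cells, and 542, 1130.5 and 514 CPM, against 2208, 2070.2 and 1997 in arrested cells. Replicate 2 of the arrested cells, the library with SWE1 counts, stands over the other 2 at 16 h. RPS12 had 769, 741 and 1201 CPM at 16 h, against 2595, 1541 and 2315 at 0 h in polyploid cells, and RPS13 had 530.4, 439.9 and 730.4 CPM, against 1428, 1422 and 1724. RPS20 had 607, 512 and 757 CPM, against 1379.7, 1299 and 1272, and RPS31 had 1727, 1679 and 2168 CPM, against 4657, 3049 and 4857. No 16 h culture of these 4 genes reached a 0 h culture. RPS15 had 301, 367 and 496 CPM at 16 h, against 1026, 840.1 and 1299 at 0 h, and its log2 fold change was already -0.81, SE 0.23, adjusted p = 0.0088 at 4 h.

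In arrested CS cells most of the genes fell too. 20 genes were lower at 4 h (median -0.63, 20.7% of all genes lower), 37 at 8 h (-0.79, 25.5%), 53 at 12 h (-1.39, 26.4%) and 53 at 16 h (-1.45, 23.9%). Members that rose were RPS14B at 4 h (0.59, SE 0.22, adjusted p = 0.0339) and RPS9A at 8 h (0.67, SE 0.18, adjusted p = 0.00202) and 12 h (0.46, SE 0.18, adjusted p = 0.0286). Of all genes, 20.6, 25.9 and 27.1% were higher at 4, 8 and 12 h. At 16 h RPS15 and RPS23A had the smallest p-values over all libraries. RPS15 had 180.2, 406 and 216 CPM, against 955, 984 and 807 at 0 h (-1.77, SE 0.24, adjusted p = 4.33e-07). RPS23A had 1113, 1161 and 1076 CPM, against 3502, 3408 and 3359.6 (-1.62, SE 0.22, adjusted p = 4.59e-07). Replicate 2 is the highest 16 h library for both, by a narrow margin in RPS23A. Without that library, which has the SWE1 counts, the log2 fold changes were -2.21 for RPS15 and -1.65 for RPS23A, and most members then had smaller p-values than RPS23A. Leaving it out also gave 53 genes lower at 16 h, with a median of -2.04 in place of -1.45 (24.1% of all genes lower). Cycling CS cells showed 1 gene higher and 0 lower at 16 h (median -0.04, 6.87% of all genes higher, and 0 lower at an unadjusted p under 0.05). It was RPS9A, with 296, 387 and 423 CPM at 16 h, against 206, 265 and 293 at 0 h (0.53, SE 0.17, adjusted p = 0.0393), and it was not called without any 1 of the 3 cycling cultures.

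The change in polyploid CS cells minus that in arrested CS cells was called for few members. By edgeR's test it was called for 0 of 55 at 4 h (0 also at an unadjusted p under 0.05), for 2 at 8 h, RPS9A (-1.19, SE 0.25, adjusted p = 7.11e-04) and RPS7B (-0.99, SE 0.31, adjusted p = 0.0187), and for RPS9A alone at 12 h (-1.38, SE 0.25, adjusted p = 2.68e-04) and 16 h (-1.06, SE 0.25, adjusted p = 0.00476), all of them lower in polyploid cells. Of all genes, 2.9, 12.1, 8.54 and 7.53% were lower at 4, 8, 12 and 16 h. RPS9A had 222, 176 and 172 CPM at 8 h, against 236, 263 and 322 at 0 h in polyploid cells, and 257, 278 and 367 CPM at 8 h, against 188, 209 and 171 at 0 h in arrested cells. The 2 cell types moved in opposite directions, with all polyploid cultures below and all arrested cultures above their 0 h cultures. RPS7B had 240.0, 178 and 167 CPM at 8 h, against 411, 420.4 and 518 at 0 h in polyploid cells, and 328, 349.9 and 376 CPM, against 363, 453 and 407 in arrested cells. The 16 h result turned with the library that has SWE1 counts. Without it, 10 members were called, 9 of them higher in polyploid cells (among them RPS10A, RPS10B, RPS20, RPS25A, RPS27B and RPS29A) and RPS9A lower (-1.10, SE 0.26, adjusted p = 0.005), with a median of 0.76 in place of 0.18 and 5.89% of all genes higher. Leaving out culture 2 of the arrested cells at every time gave 1 called with a median of 0.74, and leaving out culture 3 of the polyploid cells gave 3, RPS7B and RPS9A lower and RPS29A higher. Levels at 16 h differed between polyploid and arrested CS cells for 7 members with the library that has SWE1 counts, 5 higher (RPS25A, RPS25B, RPS26A, RPS29A and RPS30B) and 2 lower (RPS9A and RPS23A). Of all genes, 13.2% were higher and 16.6% lower, so both counts are below the share of all genes. Without that library, 38 were higher and the same 2 were lower (median 0.93, with 15% of all genes higher and 16.5% lower). Against cycling CS cells, polyploid cells were lower for 52 members at 16 h (median -1.50, 25.8% of all genes lower) and for 0 at 0 h by edgeR's test (0% of all genes lower), where 4 were lower at an unadjusted p under 0.05.

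The changes of the 2 kinds of polyploid cell were set against each other in 1 fit of all 72 libraries. The change was higher in MB than in CS polyploid cells for 31 of 55 members at 4 h (median difference 1.04, 5.84% of all genes higher), 46 at 8 h (1.46, 7.79%), 28 at 12 h (0.98, 8.39%) and 5 at 16 h (0.36, 7.76%), and lower for none. The 5 at 16 h, a share near that of all genes, were RPS0B, RPS2, RPS7B, RPS9A and RPS15. For RPS9B at 8 h the difference was 1.72, SE 0.30, adjusted p = 2.62e-05, with 2277, 2800.0 and 2516 CPM at 8 h, against 1813, 1736 and 2071 at 0 h in MB cells, and 1243, 938 and 679.5 CPM, against 2181, 2097 and 2639 in CS cells. In arrested cells the change was lower in MB than in CS cells for 3 members at 4 h (RPS7B, RPS14B and RPS24B, 10.8% of all genes lower), 33 at 8 h (19.2%), 8 at 12 h (14.3%) and 9 at 16 h (10.2%), and higher for none. The counts at 4 and 12 h are near or below the share of all genes. Without the arrested CS library with SWE1 counts, 3 were lower at 16 h, where 9.97% of all genes were lower, and the median difference was -0.07 in place of -0.62. RPS7B had the smallest p-value at 8 h (-2.40, SE 0.26, adjusted p = 1.48e-10). The tests differ in strain, drug and temperature at once, which cannot be told apart here.

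RPS9 and RPS14 are shown with their upstream sequence because their 2 copies moved apart. Rps9 holds the body near the entry of the mRNA and keeps decoding accurate, and Rps14 is a platform protein that is known to bind the RPS14B transcript and hold back its splicing. The 250 bases that end 201 bases before the start codon are given for each copy, 5′ to 3′ on the strand of the gene, from the RefSeq sequence of R64. Capitals mark a match to CCNTACA, the core of the Rap1 site, on either strand. RPS9A lies at chrXVI:404950-406044 (+), RPS9B at chrII:604508-605508 (+), RPS14A (YCR031C) at chrIII:177500-178220 (-) and RPS14B at chrX:73787-74611 (+), each from start to stop codon with 1 intron, and their windows are chrXVI:404500-404749, chrII:604058-604307, chrIII:178421-178670 and chrX:73337-73586.
RPS9A: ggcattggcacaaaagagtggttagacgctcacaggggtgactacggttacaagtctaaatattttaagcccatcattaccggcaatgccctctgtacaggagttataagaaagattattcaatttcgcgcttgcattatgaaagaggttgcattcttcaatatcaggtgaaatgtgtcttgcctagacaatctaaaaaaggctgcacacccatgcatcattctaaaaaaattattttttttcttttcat
RPS9B: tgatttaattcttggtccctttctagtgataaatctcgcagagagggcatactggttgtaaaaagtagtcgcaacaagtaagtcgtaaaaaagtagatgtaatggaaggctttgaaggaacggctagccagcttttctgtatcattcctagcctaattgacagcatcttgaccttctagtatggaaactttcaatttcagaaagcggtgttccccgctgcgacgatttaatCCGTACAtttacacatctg
RPS14A: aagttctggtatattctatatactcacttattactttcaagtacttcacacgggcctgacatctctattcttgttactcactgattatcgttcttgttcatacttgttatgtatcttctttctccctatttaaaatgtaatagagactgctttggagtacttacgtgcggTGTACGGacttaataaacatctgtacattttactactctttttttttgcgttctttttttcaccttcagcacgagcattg
RPS14B: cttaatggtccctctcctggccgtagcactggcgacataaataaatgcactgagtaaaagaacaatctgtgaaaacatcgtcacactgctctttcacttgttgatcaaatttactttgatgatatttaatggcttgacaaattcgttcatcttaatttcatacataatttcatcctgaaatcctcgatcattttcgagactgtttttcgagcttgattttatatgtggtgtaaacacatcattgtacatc
The match lay 219 bases before the start codon in RPS9B and 280 in RPS14A, the more expressed copy of each pair, and RPS9A and RPS14B had none within 500 bases. Of the 11 pairs with a match before 1 copy alone, it lay before the more expressed copy in 7 and before the less expressed one in 4 (levels of cycling cells at 0 h), RPS0, RPS19 and RPS25 among the 4. CCNTACA was found on either strand within 500 bases of the start codon in 31 of the 55 genes (56.4%), in 49 of 81 large-subunit genes (60.5%) and in 952 of 6000 coding genes (15.9%). The Abf1 motif was found in 6 of 55 (10.9%) and in 18.2% of coding genes. These letters are a description of the windows and not a measure of binding. Only exact matches were sought, so a gene without one may still hold a variant of the site.

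The share of the A copy in the counts of the RPS9 pair went up in polyploid and arrested cells of both tests. In polyploid MB cells RPS9A made 24.6, 22.3 and 22.6% of the pair at 16 h, against 9.78, 8.75 and 6.42% at 0 h. In polyploid CS cells it made 19.9, 22.2 and 15.6% at 16 h, against 9.77, 11.1 and 10.9%. In arrested MB cells it made 17.4, 15.1 and 13.6%, against 7.96, 7.63 and 8.25%. None of these 16 h cultures overlapped the 0 h cultures. The pair was chosen for its move, so no test is given. In arrested CS cells RPS9A made 8.67, 8.77 and 7.45% at 0 h, 17.8, 20.1 and 21.0% at 8 h, 25.3, 26.7 and 27.8% at 12 h and 32.1, 15.9 and 33.4% at 16 h, and the low 16 h value is the library with SWE1 counts. Cycling cells had 9.74, 12.0 and 13.2% at 16 h, against 11.5, 10.7 and 7.52% at 0 h in the MB test and 11.7, 12.8 and 12.6% at 16 h, against 8.57, 12.1 and 9.33% at 0 h in the CS test, and the cultures overlap in both. The RPS9 copies are 90.9% identical in coding sequence and their proteins differ at 5 residues. The copies were called in opposite directions in polyploid MB cells at 12 and 16 h and in arrested CS cells at 8 and 12 h, and at 16 h in polyploid MB cells their log2 fold changes were 1.75 apart, against a median of 0.12 over the 23 pairs.

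RPS14 shifted toward its minor copy, RPS14B, in the same cells. RPS14A made 82.0, 84.0 and 83.1% of the pair at 16 h in polyploid MB cells, against 91.8, 91.5 and 90.3% at 0 h, and 71.7, 74.9 and 70.0% in arrested MB cells, against 86.2, 86.5 and 87.1%. In polyploid CS cells it made 62.5, 63.9 and 71.9% at 16 h, against 84.6, 85.0 and 85.5% at 0 h. In arrested CS cells it made 58.2, 58.4 and 55.6% at 12 h and 50.4, 77.0 and 46.6% at 16 h, against 82.9, 84.1 and 83.7% at 0 h. Each of these was lower at 16 h in every culture, and the arrested CS library that stands over the others at 16 h is again the one with SWE1 counts. In cycling cells RPS14A made 84.3, 82.7 and 85.0% at 16 h in the MB test, against 84.0, 83.5 and 89.2% at 0 h, and 84.3, 86.3 and 83.1% in the CS test, against 84.4, 84.0 and 83.4%, with overlap in both. In counts, RPS14A had 283, 643 and 262 CPM at 16 h in arrested CS cells, against 1463, 1256 and 1276 at 0 h (log2 fold change -1.75, SE 0.31, adjusted p = 2.27e-05, and -2.29 without the library with SWE1 counts). RPS14B had 278, 192 and 300.2 CPM, against 303, 237 and 248, a log2 fold change of -0.03 that did not pass the test (0.14 without that library, also not past it). At 4 h it had 347, 497 and 340.5 CPM, above all 0 h cultures. In arrested MB cells RPS14B did fall (-1.07, SE 0.18, adjusted p = 7.98e-06), beside -2.37 for RPS14A.

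**Figure D4:**
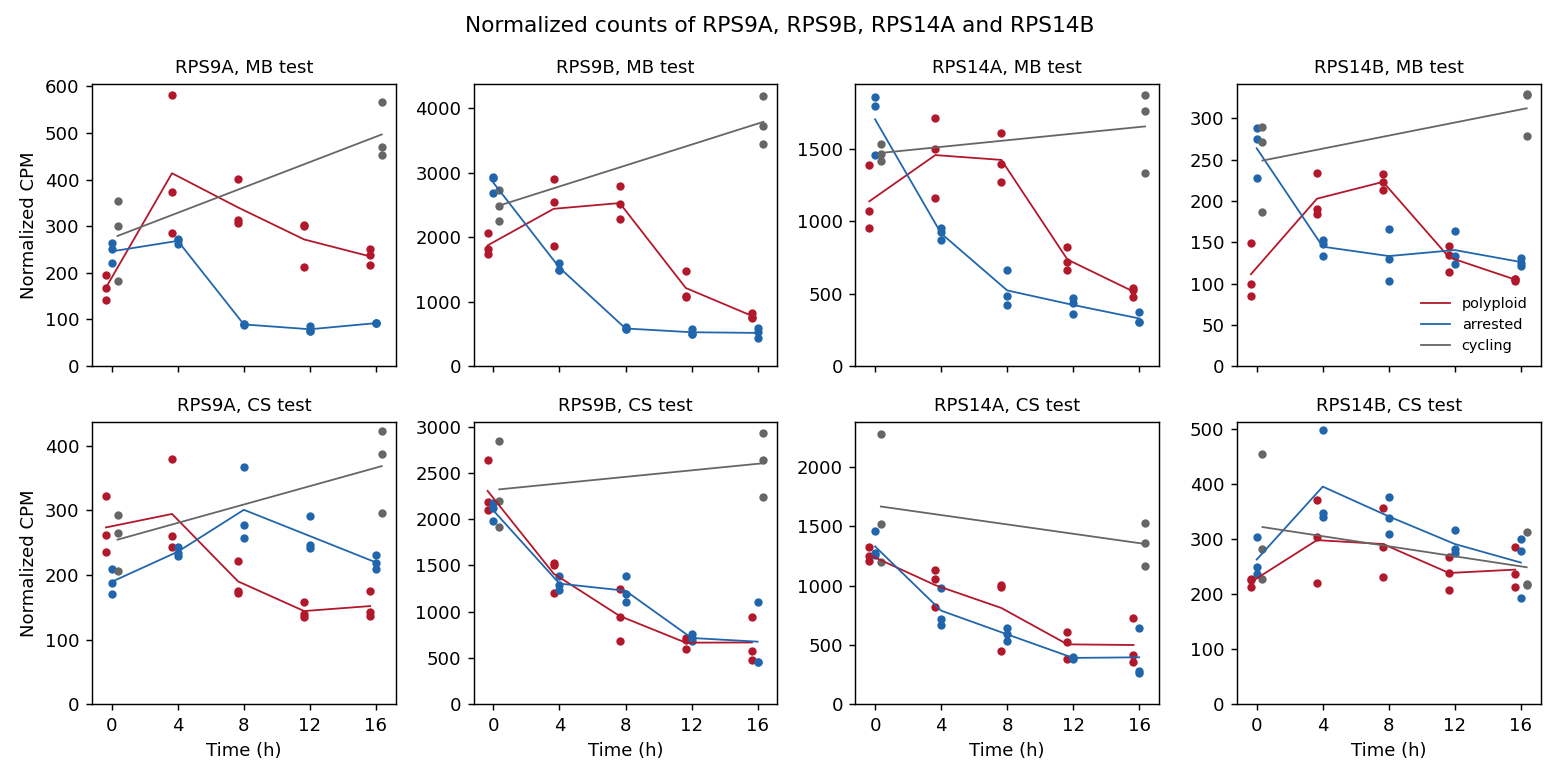
Normalized CPM (vertical axis, each panel with its own scale from 0) of RPS9A, RPS9B, RPS14A and RPS14B by time in hours, in the MB test (top) and CS test (bottom). Points are single libraries and lines join the means of 3 cultures of polyploid, arrested and cycling cells: RPS9B and RPS14A fall in polyploid and arrested CS cells while RPS14B ends near its starting level (log2 fold change 0.14 and -0.03 at 16 h).

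Other pairs were among the 3 widest moves of the A share between 0 and 16 h in at least 1 cell type. RPS27 and RPS29 encode small zinc-binding proteins of the platform and the head. RPS27A made 39.6, 40.1 and 45.1% of the RPS27 pair in polyploid MB cells at 16 h, against 32.5, 32.4 and 32.5% at 0 h, and 51.4, 42.3 and 49.9% in arrested CS cells, against 35.6, 38.0 and 36.2%. RPS29A made 57.4, 55.7 and 52.8% of its pair in polyploid CS cells at 16 h, against 35.8, 33.7 and 45.1% at 0 h, and 45.8, 48.1 and 40.1% in cycling MB cells, against 34.4, 35.0 and 34.7%. In all 4 cases the cultures of the times do not overlap, which the choice of these pairs by the size of the move favours. RPS19, for a head protein needed to mature the ribosomal RNA, had a mean A share of 46.4% in polyploid CS cells at 16 h, against 34.3% at 0 h, and 40.3% in arrested MB cells, against 32.3%. In arrested MB cells RPS21A made a mean of 33.7% at 16 h, against 44.5% at 0 h. In cycling MB cells RPS0A made 66.2, 67.0 and 59.9% of its pair at 16 h, against 51.8, 47.5 and 49.3% at 0 h, and RPS7A a mean of 83.1%, against 72.1%. In cycling CS cells the 3 widest moves were smaller than these, and included RPS28A with a mean of 71.2% at 16 h, against 76.7% at 0 h, and RPS24A with 69.7%, against 74.3%. RPS28 overlapped between the times there.

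RPS23 differed between strains at every time. Its protein lies at the decoding centre, where it helps to choose the right tRNA, and its 2 copies make identical proteins from coding sequences that are 96.6% identical. At 0 h RPS23A (YGR118W) had 1339, 1078 and 1395 CPM in polyploid CS cells, against 3502, 3408 and 3359.6 in arrested CS cells (-1.43, SE 0.22, adjusted p = 1.58e-05), and it was the 1 member that differed between them at that time (4.61% of all genes lower). RPS23A made 41.7, 43.5 and 42.9% of the pair in polyploid cells at 0 h, against 74.2, 71.8 and 71.6% in arrested cells. At 16 h it made 47.6, 44.9 and 43.0% in polyploid cells, against 79.7, 60.4 and 78.6% in arrested cells, where the lowest is the library with SWE1 counts. Cycling CS cells had 41.8, 42.2 and 44.6% at 0 h. In the MB test at 0 h it made 41.9, 42.7 and 44.8% in polyploid cells, against 43.4, 43.2 and 43.6% in arrested cells. The high share was seen in 1 strain, the MATα strain with cdc20-1, and RPS23B was not called different between the CS strains at 0 h (0.40).

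**Figure D5:**
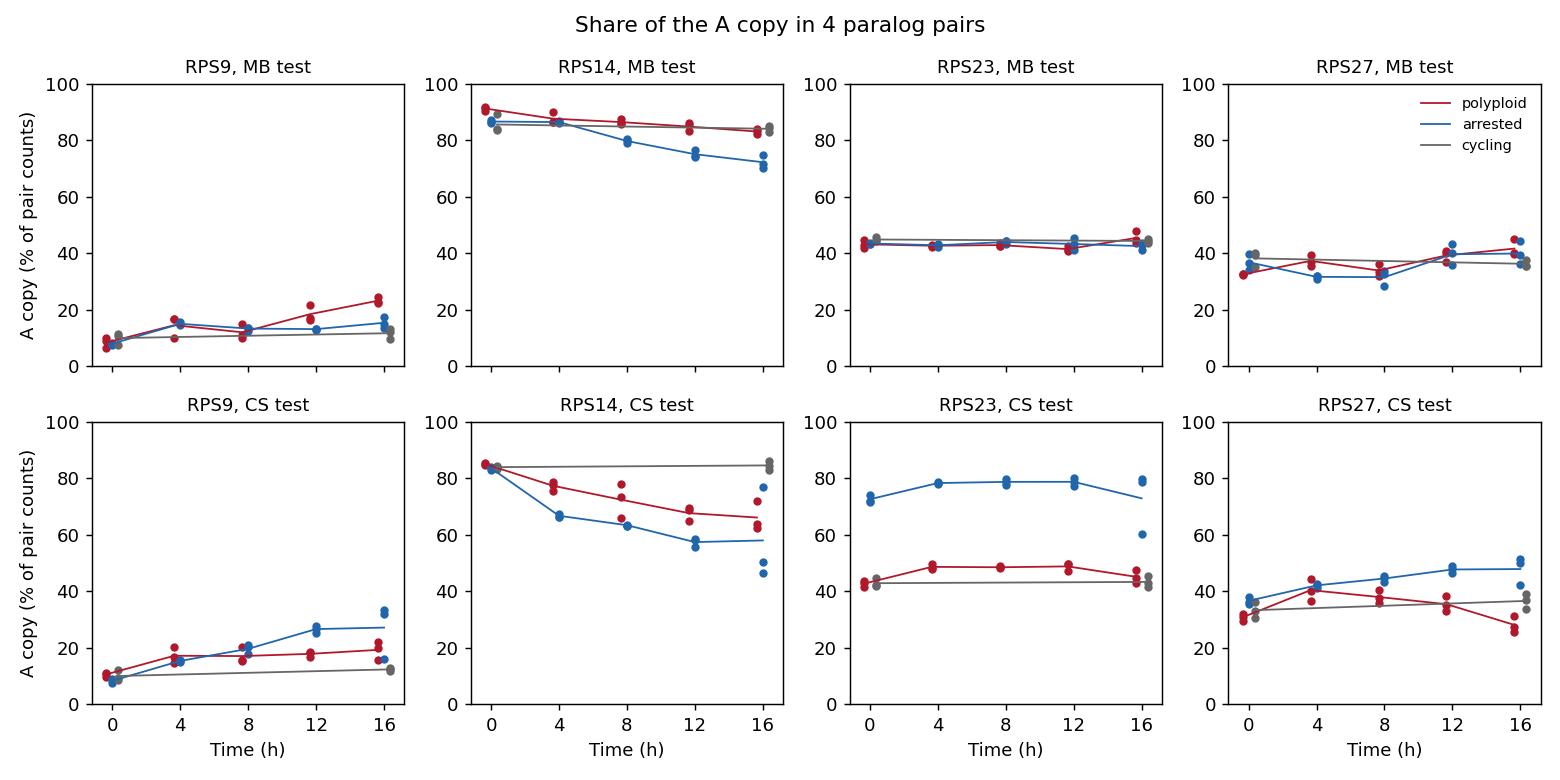
Counts of the A copy as a percent of the counts of both copies (vertical axis, 0 to 100) by time in hours for the RPS9, RPS14, RPS23 and RPS27 pairs in the MB test (top) and CS test (bottom). Points are single libraries and lines join the means of 3 cultures: the share of RPS9A climbs and that of RPS14A declines in polyploid and arrested cells, and RPS23A stands at over 70% in the arrested CS strain except for the library with SWE1 counts.

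At 16 h both copies of most pairs were called in the same direction. In arrested MB cells at 16 h both copies were lower in all 23 pairs, and in polyploid MB cells at 16 h both were lower in 19, 1 copy alone in 1, and the copies of RPS9 opposed each other. In polyploid CS cells at 16 h both were lower in 17 pairs and 1 copy in 5. In polyploid MB cells at 8 h both copies were higher in 9 pairs and 1 copy in 13, at 12 h both were lower in 1 pair, 1 copy was called in 6 and the copies of 1 pair opposed each other, and in arrested CS cells at 8 h both were lower in 8, 1 copy was called in 14 and 1 pair was opposed. Grouped by the place of the protein, the 22 genes for proteins of the head had a median of -0.90 in polyploid MB cells at 16 h, and the 33 for proteins of the body and platform had -0.91, a grouping made with these data in view. In polyploid CS cells at 16 h the head genes had -1.21 and the body genes -1.36. The 35 genes with an intron had a median of -0.94 in polyploid MB cells at 16 h and the 20 without one -0.90, and in polyploid CS cells -1.34 and -1.17. Of the neighbours RPS14B and RPS22A on chromosome X, RPS22A fell in polyploid CS cells at 16 h (-1.48 on the log2 scale). RPS14B had 0.14, which did not pass the test.

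Further pairs are given by their place in the subunit, as log2 fold changes of the A and the B copy at 16 h in polyploid cells. On the mRNA exit side, RPS0, needed late in maturation, had -0.80 and -0.69 in MB and -1.53 and -1.79 in CS cells, and RPS1, a platform protein, had -0.63 and -0.71 in MB and -1.47 and -1.42 in CS cells. RPS26, a platform protein that touches the mRNA and is brought in by the chaperone Tsr2, had -0.91 and -1.14 in MB and -0.86 and -1.25 in CS cells. RPS28, which lies by it, had -0.66 and -0.11 in MB and -0.69 and -0.58 in CS cells. Neither copy of RPS28 passed the test in either kind of cell, and both copies of RPS0, RPS1 and RPS26 passed it in both. In the body, RPS4 had -0.98 and -1.06 in MB and -1.51 and -1.65 in CS cells, and RPS6, whose protein is phosphorylated downstream of TOR, had -0.94 and -0.95 in MB and -1.60 and -1.21 in CS cells. RPS7 had -1.02 and -0.99 in MB and -1.56 and -1.76 in CS cells. RPS22 had -1.07 and -0.77 in MB and -1.48 and -1.51 in CS cells, and RPS24 had -0.87 and -0.56 in MB and -1.34 and -1.05 in CS cells. All copies of these 5 body pairs passed the test in both kinds of cell. In the head, RPS10, by the mRNA entry, had -0.70 and -0.66 in MB and -1.02 and -0.90 in CS cells, and RPS16, whose tail reaches the tRNA in the peptidyl site, had -0.89 and -0.98 in MB and -1.24 and -1.58 in CS cells. RPS18, which touches the large subunit, had -1.03 and -0.96 in MB and -1.32 and -1.86 in CS cells. RPS25, which some viral RNAs need to start translation, had -0.95 and -0.93 in MB and -0.60 and -0.49 in CS cells, with RPS25B in CS cells not past the threshold. RPS30B, which lies near the decoding centre, had 102, 121 and 89.5 CPM at 16 h in polyploid MB cells, against 201, 188 and 218 at 0 h (-0.96, SE 0.36, adjusted p = 0.0291), and 161, 135 and 172 CPM in polyploid CS cells, against 228, 256 and 408 (-0.93, SE 0.36, adjusted p = 0.0312).

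The slope of expression on DNA content over all libraries of a test was called for few of these genes. In the MB test it was called for 0 of 55 by edgeR's test with a Bonferroni-adjusted p under 0.05 (median -0.06 log2 units per 100000 fluorescence units, against -0.02 over all genes, 1.28% of which were lower). DESeq2 and limma also called 0, and 0 had an unadjusted p under 0.05. In the CS test 2 were lower, RPS23A (-0.92, SE 0.12, adjusted p = 2.65e-05) and RPS7B (-0.59, SE 0.11, adjusted p = 0.0494), with a median of -0.34 over the 55 and 2.06% of all genes lower. RPS23A is the gene that differed between the strains at 0 h, where DNA content was still low in both. Without the arrested cells, 34 were lower (median -0.66), where 6.05% of all genes were lower. A replicate block was also fitted for each culture number within a cell type, which takes mean differences between cell types out of the slope. With it, edgeR's test called 0 of the 55 (0.348% of all genes lower, and 46 of the 55 lower at an unadjusted p under 0.05). The slopes were then -0.62 for RPS23A and -0.79 for RPS7B. In the fit with no block RPS23A was lower without each culture in turn, and RPS7B was not called without any 1 culture of the polyploid or cycling cells or without culture 2 of the arrested cells. The slopes of the tests were called different for 0 members by edgeR's test with Bonferroni adjustment (1.46% of all genes higher in MB, median difference 0.31 over the 55, and 6 higher at an unadjusted p under 0.05), and no other tool was run on this.

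The large-subunit genes moved with the small-subunit genes. Of 80 such genes tested in the MB test and 81 in the CS test, 65 were higher in polyploid MB cells at 8 h (median 0.62, beside 0.63 for the small subunit, with 16.5% of all genes higher) and 74 were lower at 16 h (-0.86, beside -0.91, with 21.7% of all genes lower). In polyploid CS cells 72 were lower at 16 h (-1.22, beside -1.25, with 23.4% of all genes lower). The ratio of large- to small-subunit counts was 1.13 to 1.58 over the 72 libraries (median 1.40). Among 12 regulators, polyploid MB cells at 16 h had 4 higher and 2 lower (23.2% of all genes higher and 21.7% lower), and polyploid CS cells 7 higher and 2 lower (26% and 23.4%). IFH1, the coactivator that is recruited to these promoters when growth is on, was higher in both (log2 fold change 2.55 in MB and 2.12 in CS cells), as was CRF1, a corepressor that competes with Ifh1 for Fhl1 (2.95 and 1.99). TOD6, a repressor of ribosome biogenesis genes, was higher too (1.89 and 1.11). HMO1, which binds many ribosomal protein promoters, was lower (-0.90 and -0.98), as was STM1, which binds idle ribosomes (-0.86 and -1.81). RAP1 fell in arrested MB cells at 16 h (-0.93) and its change in polyploid MB cells was 0.13, a difference of changes of 1.06 that passed the test. Of the 6 genes for chaperones and assembly factors that attend single small-subunit proteins, 1 rose in polyploid MB cells at 8 h and 16 h. It was LTV1 (1.10 at 8 h), which helps to place Rps3 and is released late. At these times 16.5 and 23.2% of all genes were higher, so 1 of 6 is near or below that share. In arrested CS cells at 8 h, 5 of the 6 rose, LTV1 among them (1.79), while 37 of the 55 small-subunit genes were lower. Of all genes, 25.9% were higher there and 25.5% lower.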

How the data were processed

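Yeast mRNA was isolated by its poly(A) tail and sequenced. The authors aligned the reads to the S288C genome (R64) with STAR and estimated transcript counts with Salmon, run through nf-core/rnaseq, and deposited 1 table of estimated counts per gene, given there as whole numbers, and 1 of log2 TPM values. The versions and the strand setting are not given in the sources used here. Counts of near-identical copies depend on how Salmon split shared reads. Level comparisons between genes used the deposited log2 TPM values on the linear scale, while changes were tested on the deposited counts.

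Within each test, counts were filtered with filterByExpr, scaled by TMM and fitted with 1 coefficient per condition or with DNA content as the covariate in edgeR 4.0.16 (R 4.3.3, quasi-likelihood test). The MB fit held 6025 genes and the CS fit 6028, and all 55 members were tested in both. Changes and levels were called at a Benjamini-Hochberg adjusted p under 0.05 and slopes at a Bonferroni-adjusted p under 0.05, over all genes tested. Printed CPM values are scaled per test and are compared within a test. Changes of the 2 tests were compared in a fit of all 72 libraries. A fitted log2 fold change has a standard error (SE) from that fit. Alternatives were DESeq2 1.42.0, limma 3.58.1 on log2 TPM values, other scalings, no filter, summed paralogs, a replicate block and leaving out each culture. A culture, as a block or left out, stands for all libraries of a cell type with the same replicate number. The scripts were tested on simulated data. Upstream sequences and coding sequences came from the RefSeq R64 genome and were compared with Biopython 1.88 in Python 3.11.15.

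The members and the gene lists were chosen with earlier results of these data known. Per-library values are given for the single-copy genes, the 3 members with the smallest p-value in each direction of a main comparison, members called against the majority, and pairs whose copies were called in opposite directions or moved most in share (3 per cell type). Results of some members are not reported here by name, and all counts and medians include them. Other genes named were chosen after their values were seen. The methods take the time points of a cell type from 1 culture, but no source ties the replicate numbers to cultures, so the main fits have no block. Libraries held 1597321 to 9987276 counts, which sets the precision of low genes.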

Additional observations from a re-analysis of the deposited data

Results flagged for a closer look

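In the MB test the change from 0 h differed between polyploid and arrested cells for 55 of the 55 small-subunit genes at 4 h and again 55 at 8 h, then for 52 at 12 h and for 44 at 16 h, all higher in polyploid cells (median differences 1.51, 2.38, 1.62 and 1.20 on the log2 scale, edgeR's quasi-likelihood test of the difference of changes). Of all genes, 12, 16.8, 14.2 and 11.3% were higher at these times. In the CS test the change differed for 2 at 8 h, RPS9A and RPS7B, and for 1, RPS9A, at 12 and 16 h, all lower in polyploid cells. These counts are below the share of all genes, of which 12.1, 8.54 and 7.53% were lower at 8, 12 and 16 h. At 16 h the CS result turned to 9 of 10 higher without the library labelled arrested, 16 h, replicate 2, where 5.89% of all genes were higher.

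Between the tests, the change in polyploid cells was higher in MB than in CS cells for 31 members at 4 h, for 46 at 8 h, for 28 at 12 h and for 5 at 16 h, where 5.84, 7.79, 8.39 and 7.76% of all genes were higher, so that the 16 h count is near the share of all genes. The change in arrested cells was lower in MB than in CS cells for 3 members at 4 h, for 33 at 8 h, for 8 at 12 h and for 9 at 16 h, where 10.8, 19.2, 14.3 and 10.2% of all genes were lower. The counts at 4 and 12 h are near or below the share of all genes, and 3 were called at 16 h without the library labelled arrested CS, 16 h, replicate 2, where 9.97% of all genes were lower.

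Outside the 55 genes, the library labelled arrested CS, 16 h, replicate 2 had 152 counts of SWE1, a gene that had 0 counts in the other 35 libraries of that test. Its share of the small-subunit genes was 4.18%, against 1.91 and 2.03% in the other 2 arrested libraries of that time.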

How the results depend on the processing

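Of 214 values recomputed under other settings, 185 kept their direction and stayed within 1.5 times the count given above. In polyploid MB cells 12 members were called at 12 h in place of 49 at 16 h, and leaving out 1 culture gave 37 to 48 at 16 h, 1 to 41 at 4 h and 4 to 37 at 8 h. Without 1 culture, cycling MB cells had 16 to 43 called and the MB difference of changes 28 to 45 at 16 h, 50 to 53 at 12 h and 54 to 55 at 4 and 8 h. All 55 stayed called in arrested MB cells, and polyploid CS cells had 40 to 46 and arrested CS cells 41 to 53 called. The CS slope was called for 1 member with ribosomal RNA removed, 1 on log2 of DNA content and 34 without arrested cells. At the Benjamini-Hochberg threshold it was called for 16, where 13.6% of all genes were lower. It was called for 1 to 2 without 1 culture and for 0 with the replicate block. RPS9A in cycling CS cells was lost (0 called) with library size alone, with paralogs summed, in limma on log2 TPM and without any 1 culture. The CS difference of changes at 16 h had 0 called with library size alone or paralogs summed, 1 to 3 without 1 culture, and 10, mostly higher in place of lower, without the library with SWE1 counts. The MB minus CS difference of the arrested change at 16 h had 3 called in place of 9 without that library (median -0.07 in place of -0.62). At the Benjamini-Hochberg threshold 3 members differed in slope between the tests, RPS7B, RPS9A and RPS23A. Of all genes, 6.78% had a higher slope in MB and 16.4% differed in either direction, so this count is near or below the share of all genes. The causes were not tested.

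Libraries of a cell type that carry the same culture number at different times were checked for pairing. The median correlation of their deviations from the means was 0.058 over 63 pairs of libraries in the MB test (23 over 0.1) and 0.021 over 63 in the CS test (13 over 0.1), so the numbers were not used as pairs. With the number as a replicate block, 50 members were called at 16 h and 40 at 4 h in polyploid MB cells, 55 in arrested and 45 in cycling MB cells, 47 in the MB difference of changes, 48 in polyploid, 53 in arrested and 1 in cycling CS cells, 1 in the CS difference and 0 in the MB slope. Depth limits low genes most.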
